A study of Mus musculus with 5 samples.

Results

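The 38 genes described here encode antiviral proteins that interferon switches on. They were taken by symbol, through their NCBI gene identifiers, and all 38 were found among the 27179 gene rows of the deposited count table. The counts come from lymphocytes of wild type C57BL/6 mice: 3 libraries of group 3 innate lymphoid cells (ILC3) and 2 of CD4 T cells. ILC3 were sorted as CD45+ CD3- CD127+ cells carrying the RORγtGFP reporter, and CD4 T cells as CD45+ CD3+ CD4+. No treatment, infection, cytokine or further allele is named for either group, and age and tissue are not given in the labels, although the series title speaks of the intestine and of interleukin-2 from innate lymphoid cells. The cells came from 3 mice, and the labels do not say which mouse gave which library, so p-values here rest on library-to-library spread, which may be technical only.

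Interferons are secreted warning signals of infection. Type I interferons act through the receptor chains IFNAR1 and IFNAR2, and interferon gamma through IFNGR1 and IFNGR2. Janus kinases on these chains phosphorylate STAT proteins. A STAT complex that contains STAT2 and IRF9 then binds the interferon-stimulated response element, while pairs of STAT proteins bind the gamma-activated site. The genes so induced encode sensors of viral nucleic acid, enzymes and binding proteins that block viral RNA, proteins that stop virus particles at membranes, and GTPases that attack the vacuoles of intracellular microbes. Many are also transcribed at a low level without infection.

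The response element is the sequence feature that ties these genes together, so it was looked for in their promoters. RefSeq promoter windows of GRCm38.p6, from 250 bases before to 50 bases after each transcription start, were available for 29 of the 38 genes. The core of the interferon-stimulated response element, TTTC, any 2 bases and TTTC again, was searched on both strands and occurred in 16 of the 29 (55.2%), against 1079 of all 27025 genes with a window (3.99%). TTCNNNGAA, the core of the gamma-activated site, occurred in 10 of the 29 (34.5%), against 9.55% of all genes. Matches of the first motif may overlap each other, and in Bst2 and Ifitm3 one also overlaps a match of the second. Dhx58, Zbp1, Oas2, Mx1, Mx2, Usp18, Rtp4, Parp9 and Parp14 were not in the table. The stretches below hold the first motif, in capitals, in the 4 genes that differed between the cell types and had a match, and in Isg15, which had the most matches at 3, and Ifit1, 1 of several uncalled genes with 2. They are written 5′ to 3′ along the gene's strand.
Gbp3 (lower in ILC3, chr3:142559959-142560054, plus strand): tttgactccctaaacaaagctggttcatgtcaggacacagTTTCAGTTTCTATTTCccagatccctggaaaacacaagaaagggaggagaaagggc
Trim30a (lower in ILC3, chr7:104465180-104465269, minus strand): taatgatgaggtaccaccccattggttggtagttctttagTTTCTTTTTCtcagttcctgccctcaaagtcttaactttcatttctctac
Ifitm3 (lower in ILC3, chr7:141010715-141010782, minus strand): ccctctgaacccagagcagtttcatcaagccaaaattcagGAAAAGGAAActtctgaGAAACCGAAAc
Igtp (higher in ILC3, chr11:58199482-58199571, plus strand): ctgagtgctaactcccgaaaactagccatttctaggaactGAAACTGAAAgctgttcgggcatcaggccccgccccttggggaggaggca
Isg15 (not called, chr4:156200835-156200936, minus strand): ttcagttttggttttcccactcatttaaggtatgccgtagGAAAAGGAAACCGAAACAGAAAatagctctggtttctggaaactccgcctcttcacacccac
Ifit1 (not called, chr19:34640745-34640853, plus strand): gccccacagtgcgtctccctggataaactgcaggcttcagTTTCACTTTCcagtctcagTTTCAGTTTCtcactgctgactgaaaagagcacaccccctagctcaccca
Genes higher and genes lower in ILC3 both carried the core motif. By call, it occurred in 3 of the 5 lower genes with a window, in 1 of the 2 higher ones and in 12 of the 22 that were not called. A match is a run of letters, and binding was not measured.

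Library totals lay between 15123715 and 25956023 counts. Levels are given in CPM (counts scaled to a common library size by the trimmed mean of M-values), and differences as log2 of ILC3 over CD4 T from edgeR's quasi-likelihood test. A gene is called at a Benjamini-Hochberg adjusted p under 0.05 over the 12747 genes tested. Markers of the labelled cells and of other cell types were measured in the same libraries. All 11 ILC3 markers were higher in ILC3. Of 9 CD4 T cell markers, 5 were called lower there, among them Cd4 and Foxp3, and 4 were not called. Cd3e was 65.3, 69.9 and 20.6 CPM in ILC3 and 54.9 and 201 CPM in CD4 T, so the groups overlapped. Cd3g overlapped too, at 362, 470 and 161 CPM in ILC3 and 280 and 1310 CPM in CD4 T. The CD4 T libraries also held transcripts known from plasmacytoid dendritic cells, with 11 of 13 tested markers lower in ILC3 and summed levels of 4152 to 5003 CPM against 210 to 585 CPM. Markers of monocytes, macrophages and conventional dendritic cells summed to 1998 to 2666 CPM in CD4 T and 208 to 227 CPM in ILC3, with 8 of 13 lower and 1 higher. The CD8 chain genes Cd8a and Cd8b1 summed to 582 and 622 CPM in CD4 T and at most 1.23 CPM in ILC3. Siglech, a plasmacytoid dendritic cell receptor, was 745 and 814 CPM in CD4 T and at most 0.234 CPM in ILC3, while Tlr9 was close to absent in both, with no ILC3 count and 0.159 and 0.108 CPM in CD4 T. B and plasma cell markers, mostly Jchain, overlapped at 18829 to 101662 CPM in ILC3 and 21388 to 34847 CPM in CD4 T, with no count of Pax5 in either. Markers of NK cells and ILC1 summed to 689 to 924 CPM in ILC3 and 2313 to 4402 CPM in CD4 T, where Gzma alone was 2065 and 3200 CPM. Ncr1, also an ILC3 marker, went the other way, at 162 to 226 CPM in ILC3 and at most 0.0542 CPM in CD4 T. So did Klrb1c, at 30.9 to 83.3 CPM in ILC3 and at most 4.49 CPM in CD4 T. Of these 8 markers, 2 lay wholly above in ILC3, 2 wholly below, and 4 overlapped. Over all genes tested, 25.5% lay wholly above and 29.6% wholly below. The sums of epithelial markers were at most 64.4 CPM. Segments of immune receptor genes took 6.55% to 29.8% of the counts of a library. These levels differ in the same comparison as every gene below, and their part in each result was not tested. In bulk RNA, fewer cells of a type and less transcript per cell cannot be told apart.

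Transcripts of interferon-induced antiviral genes were found in the libraries of both groups, and how their combined level compared depended on the scaling. The 38 genes summed to 1443, 1754 and 1523 CPM in the ILC3 libraries and to 1791 and 1626 CPM in CD4 T, and the mean sums differed 1.09-fold. Scaled by library size alone, the sums were 1542, 1305 and 1248 CPM in ILC3 and 2244 and 1994 CPM in CD4 T, 1.55-fold higher in CD4 T and without overlap, and the median log2 difference of the 38 was then -0.98, with -0.60 over all genes. Ifit2, Oas2, Mx1 and Cmpk2 had no count in any ILC3 library, Gbp3, Ifitm3 and Trim30a were lower in ILC3, and Igtp and Oasl2 were higher. Thus 7 of 38 were called lower (18.4%) and 2 higher (5.26%). Over all genes tested, 7.21% were called lower and 6.46% higher, so the share called higher was near the background. With CD4 T replicate 1 left out, 1 of these 9 calls remained, that of Igtp. With any other library left out, 3 to 4 were called lower. The median log2 difference was -0.43 over the 38 and -0.10 over all genes tested. All 38 passed the filter on low counts. The 4 without an ILC3 count, and Oasl1, with counts in ILC3 replicate 2 alone, did so only through the CD4 T libraries. A low ILC3 value in these genes was thus given by the filter. Of the 34 with an ILC3 count, 3 were called lower (8.82%), where 6.38% of all tested genes with an ILC3 count were. That share, too, was near the background. ILC3 lay wholly below CD4 T in 12 of the 38 and wholly above in 6, where 29.6% and 25.5% of all tested genes did so. The groups were thus apart in 18 of the 38 (47.4%), against 55% of all genes tested, and overlapped in the other 20. An absence of counts in ILC3 with counts in both CD4 T libraries was seen in 4 of the 38 (10.5%) and in 2.11% of all genes tested.

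**Figure D1:**
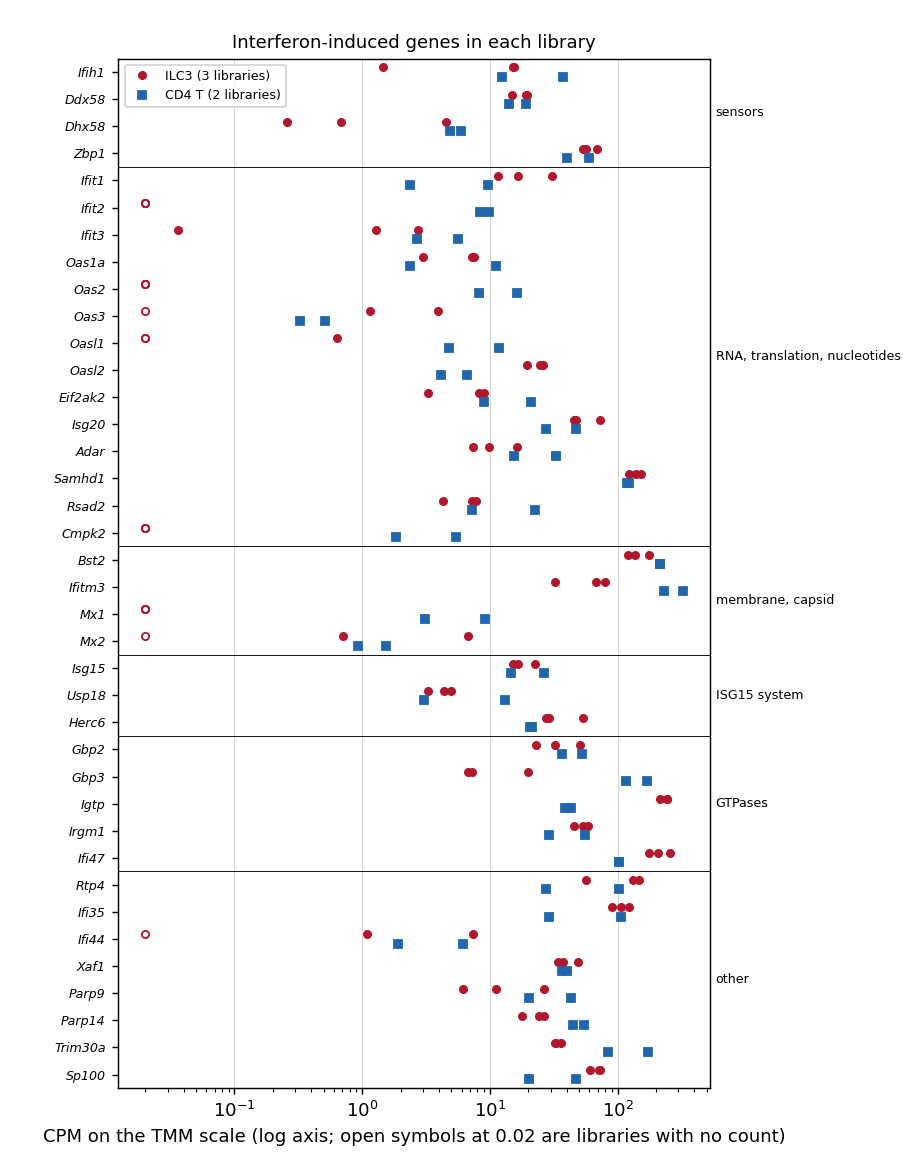
CPM on a log axis for each of the 38 genes in each library, with circles for the 3 ILC3 and squares for the 2 CD4 T libraries; open circles at 0.02 mark libraries without a count. Ifit2, Oas2, Cmpk2 and Mx1 have no filled circle, while the circles of Igtp and Oasl2 lie to the right of both squares.

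Of the most abundant transcripts per length, Bst2, Ifitm3 and Ifi47 were shared by the groups, while Igtp and Gbp3 were not. On the RPKM scale (CPM per kilobase of merged exons), the highest mean level in ILC3 was that of Bst2 at 159, followed by Igtp at 115, Ifitm3 at 88.1 and Ifi47 at 86.3. In CD4 T the order was Ifitm3 at 411, Bst2 at 238, Gbp3 at 43.8 and Ifi47 at 41.6. Gbp3 stood at 3.48 RPKM in ILC3, the rank 19 of the 38. In all, 11 genes reached 10 RPKM in ILC3 and 13 in CD4 T, and 10 and 5 were below 1 RPKM. Rsad2 averaged 1.49 RPKM in ILC3 and 3.42 in CD4 T, ranks 25 and 20 of the 38. Mx2 averaged 0.685 and 0.341, ranks 30 and 37.

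The cytosolic sensors were measured first among the roles, since they detect viral nucleic acid. None of the 4 was called (edgeR; none at an unadjusted p under 0.05, and none with DESeq2 or limma-voom). Zbp1, a sensor of Z-form nucleic acid that can start cell death, was 53.9, 69.3 and 56.9 CPM in ILC3 and 40.2 and 60.0 CPM in CD4 T (log2 difference 0.26, SE 0.312, adjusted p = 0.611 by edgeR). Ddx58, which encodes the RNA sensor RIG-I, was 19.1, 19.7 and 14.9 CPM in ILC3 and 19.3 and 14.2 CPM in CD4 T. Both groups overlapped for these sensors. Ifih1, which encodes the long-RNA sensor MDA5, varied within ILC3, at 15.2, 15.4 and 1.46 CPM, against 37.5 and 12.5 CPM in CD4 T. Dhx58, which encodes their regulator LGP2, was 0.686, 0.256 and 4.5 CPM in ILC3 and 5.95 and 4.87 CPM in CD4 T, so the groups did not overlap, with a log2 difference of -1.58 (SE 1.29).

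Effectors against viral RNA, translation and nucleotide supply were called in both directions. Of 14 such genes, 3 were called lower and 1 higher, against 7.21% and 6.46% of all genes tested. The 3 lower genes passed the filter on low counts through the CD4 T libraries alone, so a low value there was given by the filter. Of 269 tested genes without an ILC3 count, 123 (45.7%) were called lower and 0 higher. Ifit2, which binds viral RNA and restrains its translation, had no count in ILC3 and was 8.44 and 9.86 CPM in CD4 T, at least 182-fold lower in ILC3 (adjusted p = 0.0184 by edgeR). Oas2, one of the synthases of 2-5A, the messenger that activates RNase L, had no count in ILC3 and was 16.3 and 8.23 CPM in CD4 T, at least 259-fold lower (adjusted p = 0.0153 by edgeR). Cmpk2, a mitochondrial nucleotide kinase, had no count in ILC3 and was 5.47 and 1.84 CPM in CD4 T, at least 79.3-fold lower (adjusted p = 0.0472 by edgeR). A bound sets 3 counts over the whole ILC3 group against the CD4 T level, and a library's own 3 counts correspond to 0.116 to 0.144 CPM in ILC3 on the total-count scale. Each ILC3 library was thus below both CD4 T libraries for all 3 genes. The call of Ifit2 was lost on leaving out CD4 T replicate 1 (adjusted p = 0.0881 by edgeR) or 2 (0.057), that of Oas2 on leaving out CD4 T replicate 1 (0.102), and that of Cmpk2 without any 1 of the 5 libraries (0.0728 to 0.247). With a library left out, the bounds ran from 98.6 to 199 for Ifit2, from 140 to 327 for Oas2 and from 37.1 to 110 for Cmpk2. The lowest came from leaving out ILC3 replicate 1 for Ifit2 and Oas2 and CD4 T replicate 1 for Cmpk2.

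Of the OAS family, Oasl1 also lay below in ILC3, while Oasl2 lay above. Oasl2, an OAS-like protein, was 24.5, 25.9 and 19.4 CPM in ILC3 and 6.66 and 4.17 CPM in CD4 T, so every ILC3 library lay above both CD4 T libraries. The log2 difference was 2.10 (SE 0.468, adjusted p = 0.0343 by edgeR), and the call was lost without any 1 of the 5 libraries (0.0518 to 0.103) and with library size alone (0.0946). Oasl1, which is known to restrain translation of Irf7, had counts in 1 ILC3 library, at 0, 0.641 and 0 CPM, against 11.7 and 4.77 CPM in CD4 T (log2 difference -5.30, SE 1.90, adjusted p = 0.105 by edgeR). It was called lower with no filter on low counts (0.0314), with DESeq2 (0.0194) and with limma-voom (0.034). Oasl1 passed the filter on low counts through the CD4 T libraries alone, so a low ILC3 value was given by the filter. Oas3, another synthase, was 1.15, 3.91 and 0 CPM in ILC3 and 0.515 and 0.325 CPM in CD4 T, and Oas1a 7.58, 3.01 and 7.31 CPM against 2.38 and 11.1 CPM. The OAS genes thus included one that was lower, and an OAS-like one that was higher, in the same ILC3 libraries. Of the distinct 50-base stretches in Oas1a transcripts, 57.6% also occur in Oas1g, so its counts may be split between copies.

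The IFIT genes lie beside each other on chromosome 19, and of the 3 measured here Ifit2 alone was called. Ifit1, which binds viral RNA without the host's cap methylation, was 16.5, 30.8 and 11.6 CPM in ILC3 and 9.67 and 2.38 CPM in CD4 T, with ILC3 above (log2 difference 1.70, SE 0.771, adjusted p = 0.177 by edgeR). Ifit3, its binding partner, was 0.0361, 2.75 and 1.29 CPM in ILC3 and 5.67 and 2.71 CPM in CD4 T (log2 difference -1.63, SE 1.51). Ifit2 starts at 34550550, Ifit3 at 34583119 and Ifit1 at 34640889 on that chromosome (GRCm38). Ifit3 shares 51.2% of its 50-base stretches with its copy Ifit3b, which had no count in ILC3, and its level is uncertain for that reason.

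Rsad2 and Cmpk2 form another such pair on chromosome 12, on opposite strands. Rsad2, on the minus strand, spans 26442743 to 26456452, and Cmpk2, on the plus strand, starts at 26469117. Rsad2 encodes viperin, which makes a chain-terminating nucleotide from the product of CMPK2. It was 4.26, 7.24 and 7.83 CPM in ILC3 and 22.4 and 7.20 CPM in CD4 T (log2 difference -1.20, SE 0.665, adjusted p = 0.255 by edgeR). The ILC3 libraries therefore held Rsad2 at levels overlapping CD4 T while Cmpk2 had no count there.

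The 4 other genes of this role described next were not called. Samhd1, which depletes deoxynucleotides, was 140, 122 and 152 CPM in ILC3 and 119 and 124 CPM in CD4 T (log2 difference 0.19, SE 0.26, adjusted p = 0.67 by edgeR). Isg20, an RNA exonuclease, was 47.5, 73.2 and 45.5 CPM in ILC3 and 27.7 and 47.2 CPM in CD4 T. Eif2ak2, which encodes the translation-stopping kinase PKR, was 3.25, 8.26 and 9 CPM in ILC3, just below the 20.9 and 9.04 CPM of CD4 T. Adar, the RNA-editing enzyme that keeps the cell's own double-stranded RNA from being sensed, was 7.36, 9.80 and 16.4 CPM in ILC3 and 32.8 and 15.4 CPM in CD4 T. The log2 difference was -1.13 for Eif2ak2 (adjusted p = 0.289 by edgeR) and -1.11 for Adar (0.206). Adar shares 16.8% of its exonic bases with Chrnb2 on the opposite strand, and the strand setting of the counting is not given in the sources used here.

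Genes for proteins that hold virus at membranes or trap its capsid were called lower in 2 of 4 cases, against 7.21% of all genes tested. Of these, Mx1 had no ILC3 count and is described below. Ifitm3, which blocks fusion of entering viruses with endosomes, was 32.1, 67.6 and 79.3 CPM in ILC3 and 325 and 232 CPM in CD4 T. The means were 59.7 ± 24.6 CPM (SD, n = 3) and 278 ± 66.1 CPM (SD, n = 2), a log2 difference of -2.22 (SE 0.428, adjusted p = 0.023 by edgeR). The lowest CD4 T library was thus well above the highest ILC3 library. The call was lost on leaving out ILC3 replicate 2 (adjusted p = 0.0734 by edgeR) or CD4 T replicate 1 (0.095). Bst2, which encodes tetherin and in mice is also a surface marker of plasmacytoid dendritic cells, was 136, 175 and 121 CPM in ILC3 and 216 and 215 CPM in CD4 T. All ILC3 libraries lay below both CD4 T libraries, but the log2 difference of -0.58 (SE 0.281) was not called (adjusted p = 0.201 by edgeR). Across the same libraries Siglech differed by a log2 of -12.79 (adjusted p = 0.000655 by edgeR).

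The Mx genes encode dynamin-like GTPases, of which nuclear MX1 restrains influenza virus. C57BL/6 mice are known to carry a defective Mx1 allele, so its transcript is read here as a transcript only. Mx1 had no count in ILC3 and was 3.13 and 9.15 CPM in CD4 T, at least 114-fold lower (adjusted p = 0.0333 by edgeR). It passed the filter on low counts through the CD4 T libraries alone. The call was lost without any 1 of the 5 libraries (0.0556 to 0.116), and the bound then ran from 61.9 on leaving out ILC3 replicate 1 to 184 on leaving out CD4 T replicate 1, with 63.1 on leaving out CD4 T replicate 2. Mx2, its neighbour, was 0, 0.705 and 6.72 CPM in ILC3 and 1.55 and 0.921 CPM in CD4 T, so ILC3 held both the lowest and the highest value. Of the 50-base stretches in Mx2 transcripts, 4.38% also occur in Mx1.

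None of the 3 genes of the ubiquitin-like ISG15 system was called (edgeR; none at an unadjusted p under 0.05, and none with DESeq2 or limma-voom). Isg15, the modifier itself, was 15.1, 22.4 and 16.6 CPM in ILC3 and 14.6 and 26.7 CPM in CD4 T (log2 difference -0.19, SE 0.438, adjusted p = 0.802 by edgeR). Usp18, which removes ISG15 and dampens the type I receptor, was 3.25, 4.93 and 4.38 CPM in ILC3 and 13.2 and 3.03 CPM in CD4 T. Its log2 difference of -0.96 turned to 0.47 on leaving out CD4 T replicate 1. Herc6, the ligase that attaches ISG15 in mice, was 53.7, 27.3 and 29.0 CPM in ILC3 and 21.3 and 20.6 CPM in CD4 T, with ILC3 above (log2 difference 0.81, SE 0.411, adjusted p = 0.222 by edgeR).

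Of the 5 interferon-inducible GTPases among the 38, 1 was called higher and 1 lower, against 6.46% and 7.21% of all genes tested. Igtp, also called IRGM3, which guards vacuole membranes, was 244, 243 and 214 CPM in ILC3 and 38.5 and 43.0 CPM in CD4 T. Its means were 233 ± 17.1 CPM (SD, n = 3) and 40.7 ± 3.19 CPM (SD, n = 2), a log2 difference of 2.52 (SE 0.284, adjusted p = 0.00503 by edgeR). The spread within each group was small beside this gap, and Igtp was called with each of the 5 libraries left out in turn and under every other alternative tried. Gbp3, a guanylate-binding protein, went the other way at 20, 6.79 and 7.25 CPM in ILC3 and 170 and 117 CPM in CD4 T (log2 difference -3.65, SE 0.552, adjusted p = 0.0117 by edgeR). The log2 difference of Gbp3 was -4.36 on leaving out ILC3 replicate 1, and its call was lost on leaving out CD4 T replicate 1 (adjusted p = 0.0522 by edgeR). Igtp shares 11.8% of its 50-base stretches with Irgm2.

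The remaining GTPases of the 38 were not called. Ifi47 was 207, 257 and 175 CPM in ILC3 and 103 CPM in both CD4 T libraries, all ILC3 libraries above (log2 difference 1.05, SE 0.294, adjusted p = 0.0587 by edgeR). It was called higher with DESeq2 (adjusted p = 0.00252), limma-voom (0.0321) and immune receptor segment genes left out before scaling (edgeR, 0.0457). Irgm1, which regulates the other members of its family, was 45.8, 53.6 and 58.5 CPM in ILC3 and 55.3 and 28.9 CPM in CD4 T. Gbp2 was 32.5, 50.5 and 23.1 CPM in ILC3 and 52.7 and 36.8 CPM in CD4 T, and both of these overlapped.

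Other genes of the same families, taken from the wider list of interferon-induced genes, were placed beside them after their values were seen. All 7 immunity-related GTPases had a log2 difference above 0, from 0.32 to 4.82, and 2 were called, Igtp and Tgtp2. With library size alone 6 of the 7 were above 0. Tgtp2 was 126, 134 and 131 CPM in ILC3 and 2.3 and 15.4 CPM in CD4 T (log2 difference 3.88, SE 0.812, adjusted p = 0.0289 by edgeR). Its call was lost on leaving out ILC3 replicate 1, 2 or 3 (0.0743, 0.0729 and 0.0632), and its log2 difference was 5.83 on leaving out CD4 T replicate 2 and 3.08 without replicate 1. Tgtp1 and Tgtp2 are near-identical copies whose reads cannot be assigned firmly. Of 8 guanylate-binding protein genes, 7 had a log2 difference below 0 and 2 were called lower, Gbp3 and Gbp7, while Gbp6 was 35.8, 87.6 and 57.6 CPM in ILC3 and 11.5 and 20.8 CPM in CD4 T. Gbp6 was not called (adjusted p = 0.0523 by edgeR) but was higher with DESeq2 (0.00228) and limma-voom (0.0428), and Gbp7 lost its call without any 1 of the 5 libraries (0.0567 to 0.152). Summed over each family, the immunity-related GTPases were 752, 879 and 742 CPM in ILC3 and 247 and 238 CPM in CD4 T. The guanylate-binding proteins were 219, 326 and 278 CPM in ILC3 and 524 and 496 CPM in CD4 T. Neither sum overlapped between the groups. Of all 12747 genes tested, 6.46% were called higher and 7.21% lower, and the groups were apart in 55%. The log2 difference was above 0 in 6044 of them and below 0 in 6703. The difference between the families was not tested.

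**Figure D2:**
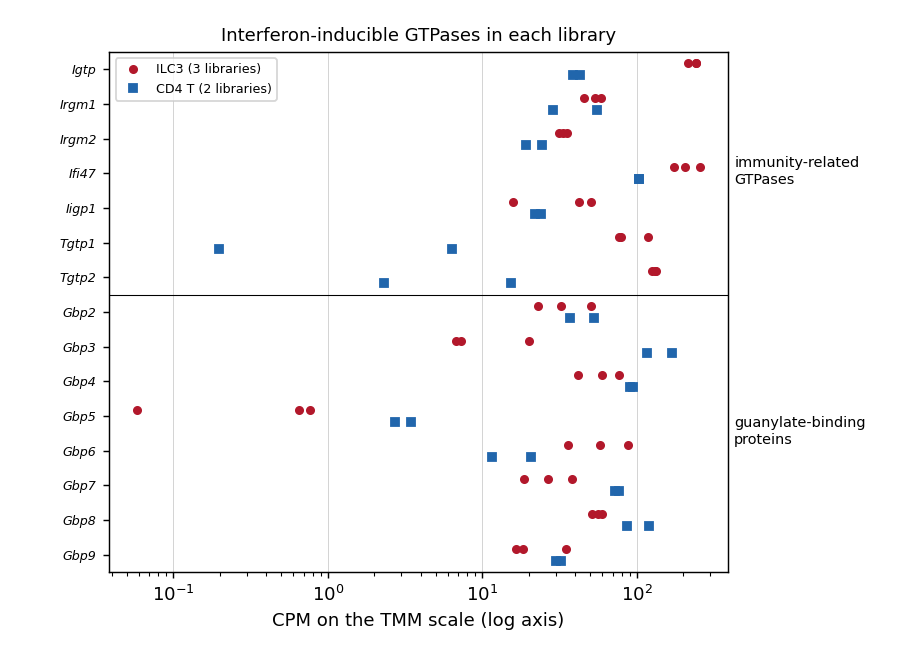
CPM on a log axis for 7 immunity-related GTPases (top) and 8 guanylate-binding proteins (bottom), with circles for the 3 ILC3 and squares for the 2 CD4 T libraries. Circles of Igtp, Tgtp1 and Tgtp2 lie to the right of the squares, and those of Gbp3 to the left.

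Of the 8 other interferon-induced proteins, 1 was called, where 13.7% of all genes tested were called in either direction. Trim30a, a tripartite motif protein that restrains NF-κB signalling, was 32.3, 33.2 and 36.0 CPM in ILC3 and 172 and 84.7 CPM in CD4 T (log2 difference -1.92, SE 0.355, adjusted p = 0.02 by edgeR). The ILC3 libraries were tightly grouped and lay below both CD4 T libraries. The call was lost on leaving out ILC3 replicate 1, 2 or 3 (0.0749, 0.0767 and 0.0627) or CD4 T replicate 1 (0.0522), where the log2 difference was -1.32. Parp14, a mono-ADP-ribosyl transferase, was 17.7, 26.4 and 24.4 CPM in ILC3 and 54.7 and 44.7 CPM in CD4 T (log2 difference -1.12, SE 0.324, adjusted p = 0.0625 by edgeR). It was called lower with DESeq2 (0.014), limma-voom (0.0411) and library size alone (edgeR, 0.0258). Parp9, of the same enzyme family, was 6.17, 11.2 and 26.4 CPM in ILC3 and 42.9 and 20.1 CPM in CD4 T, where the groups overlapped.

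Some of these genes differed widely between the CD4 T libraries. Sp100, a nuclear body protein, was 72.2, 60.7 and 73.2 CPM in ILC3 and 20.1 and 47.2 CPM in CD4 T (log2 difference 1.03, SE 0.418, adjusted p = 0.14 by edgeR). Ifi35 was 90.1, 123 and 107 CPM in ILC3 and 29.0 and 106 CPM in CD4 T (log2 difference 0.66, SE 0.538, adjusted p = 0.44 by edgeR). On leaving out CD4 T replicate 2, both were called higher, Sp100 at a log2 difference of 1.79 (adjusted p = 0.02 by edgeR) and Ifi35 at 1.89 (0.0187). Rtp4, a chaperone of receptor transport, was 56.4, 148 and 132 CPM in ILC3 and 27.5 and 103 CPM in CD4 T. Xaf1, a partner of the apoptosis inhibitor XIAP, was 37.1, 48.9 and 34.1 CPM in ILC3 and 36.7 and 39.9 CPM in CD4 T (log2 difference 0.06, SE 0.308), and Ifi44 was 0, 1.09 and 7.42 CPM against 1.90 and 6.17 CPM. For Rtp4, Xaf1 and Ifi44 the groups overlapped.

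**Figure D3:**
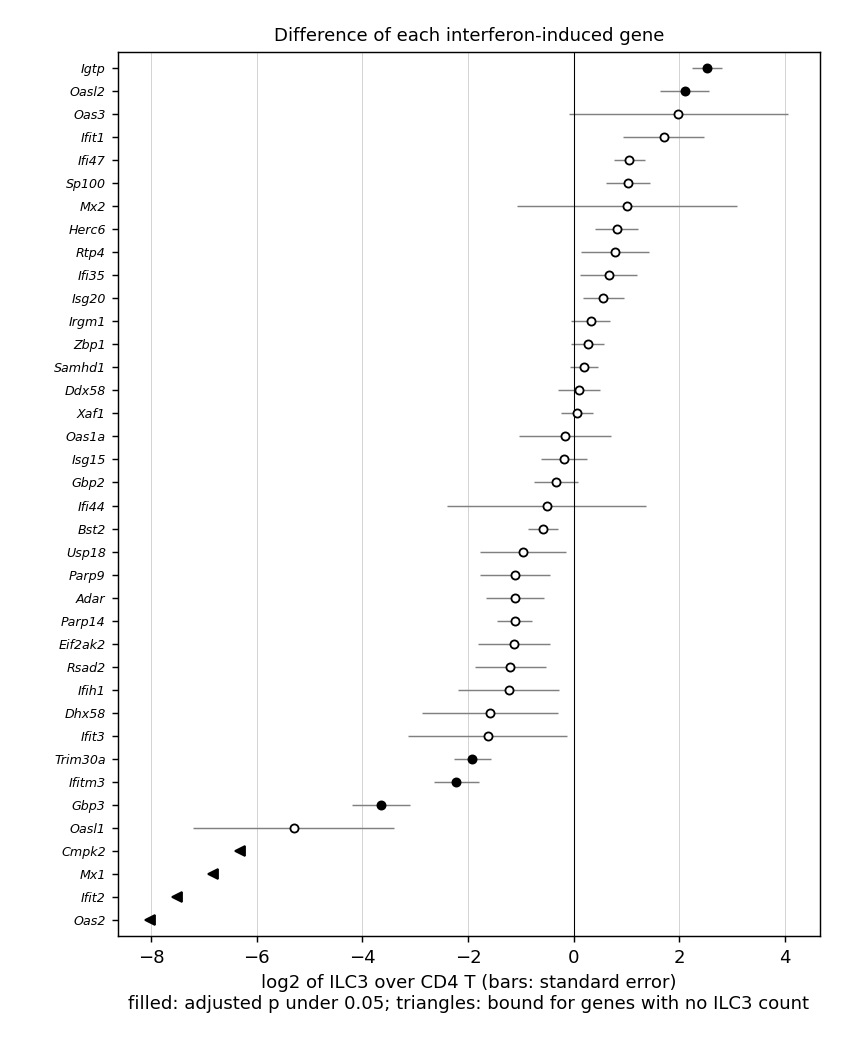
The log2 difference of ILC3 over CD4 T for each of the 38 genes, in order of size; bars are standard errors, filled symbols are called at an adjusted p under 0.05, and triangles are bounds for the 4 genes without an ILC3 count. Igtp and Oasl2 are the filled circles above 0, and Trim30a, Ifitm3 and Gbp3 those below 0.

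The ILC3 libraries also differed among themselves. The highest of the 3 was replicate 1 for 4 of the 38 genes, replicate 2 for 18 and replicate 3 for 12, where the shares over all genes tested were 35.5%, 31.6% and 32.9%. In these shares the 269 tested genes without an ILC3 count fall under replicate 1, while the 4 such members were left out. In 7 of the 38 genes (18.4%) the highest ILC3 library was at least 5 times the lowest, where 24.3% of all tested genes did so. These were Ifih1, Dhx58, Ifit3, Oas3, Oasl1, Mx2 and Ifi44. ILC3 replicate 3 held the highest values of Mx2, Ifi44 and Dhx58 and the lowest of Ifih1, with no count of Oas3. ILC3 replicate 2 held the highest values of Ifit3, Oas3 and Oasl1. No ILC3 library was thus the highest for all 7 genes. In CD4 T, 24 of the 38 genes (63.2%) were higher in replicate 1 than in replicate 2, against 49.3% of all genes tested, and none differed between these libraries by 5-fold or more, where 16.1% of all tested genes did.

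Transcripts of the interferons themselves, other than Ifng, were scarce. Of 12 ligand genes, 9 had no count in CD4 T and 10 none in ILC3, among them Ifnb1 and all 6 Ifna genes listed, and 2 passed the filter. Ifng, which encodes interferon gamma, was 25.0, 33.2 and 11.6 CPM in ILC3 and 19.0 and 116 CPM in CD4 T (log2 difference -1.54, SE 0.759, adjusted p = 0.209 by edgeR). The values overlapped, and on leaving out CD4 T replicate 2 the log2 difference turned to 0.31. Ifnl2, an interferon lambda gene, had no count in ILC3 and was 2.10 and 1.52 CPM in CD4 T, at least 37.3-fold lower and not called (adjusted p = 0.0555 by edgeR). Neither ligand was called with edgeR, and 1 of them had an unadjusted p under 0.05. Ifnl2 was called lower with DESeq2 (0.0146), limma-voom (0.0276), library size alone (edgeR, 0.0442) and receptor segment genes left out (edgeR, 0.048). It passed the filter on low counts through the CD4 T libraries alone. Of 269 tested genes without an ILC3 count, 45.7% were called lower and 0 higher.

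Receptor chains for the classes of interferon differed in opposite directions. Ifngr1, the ligand-binding chain for interferon gamma, was 3931, 3053 and 2766 CPM in ILC3 and 236 and 612 CPM in CD4 T. The log2 difference was 2.94 (SE 0.514, adjusted p = 0.0171 by edgeR). Its call was lost on leaving out ILC3 replicate 1 (0.0591) or 2 (0.058), and the log2 difference was 3.80 on leaving out CD4 T replicate 2. Ifnar1, of the type I receptor, was 29.9, 23.3 and 33.4 CPM in ILC3 and 160 and 121 CPM in CD4 T (log2 difference -2.28, SE 0.299, adjusted p = 0.00792 by edgeR). Ifnar2, its partner chain, was 115, 111 and 63.6 CPM in ILC3 and 261 and 346 CPM in CD4 T (log2 difference -1.65, SE 0.35, adjusted p = 0.0301 by edgeR). Il10rb, shared by the receptors for interferon lambda and interleukin-10, was 23.4, 35.1 and 16.0 CPM in ILC3 and 87.6 and 62.8 CPM in CD4 T (log2 difference -1.60, adjusted p = 0.0466 by edgeR). The calls of Ifnar2 and Il10rb were lost without any 1 of the 5 libraries (0.0566 to 0.0863 and 0.053 to 0.186). Ifngr2, the signalling chain for interferon gamma, was 54.1, 41.1 and 58.0 CPM in ILC3 and 57.1 and 33.8 CPM in CD4 T. Thus 1 of 6 chains was called higher and 3 lower, and no ILC3 library overlapped CD4 T in any of those 4. Of all genes tested, 6.46% were called higher and 7.21% lower, and the groups were apart in 55%.

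None of 5 genes that relay the signal was called (edgeR; 3 at an unadjusted p under 0.05, with 3 called lower by DESeq2 and 1 by limma-voom). Jak1, a kinase used by both receptor types, was 258, 234 and 282 CPM in ILC3 and 217 and 272 CPM in CD4 T (log2 difference 0.08, SE 0.275, adjusted p = 0.873 by edgeR), and the groups overlapped. Jak2, the other kinase of the interferon gamma receptor, was 93.3, 84 and 103 CPM in ILC3 and 128 and 237 CPM in CD4 T, with all ILC3 libraries below (log2 difference -0.97, SE 0.334, adjusted p = 0.0971 by edgeR). It was called lower with DESeq2 (0.0412) and on leaving out CD4 T replicate 1 (edgeR, 0.0409). Stat2, needed for the response element complex, was 12.1, 9.67 and 11.9 CPM in ILC3 and 48.9 and 22.1 CPM in CD4 T (adjusted p = 0.0533 by edgeR). It was called lower with DESeq2 (0.00691), with library size alone (edgeR, 0.0372) and on leaving out CD4 T replicate 2 (edgeR, 0.0183). Irf9, the DNA-binding part of that complex, was 36.4, 62.3 and 53.9 CPM in ILC3 and 47.6 and 43.2 CPM in CD4 T (log2 difference 0.16, SE 0.331), where the groups overlapped.

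**Figure D4:**
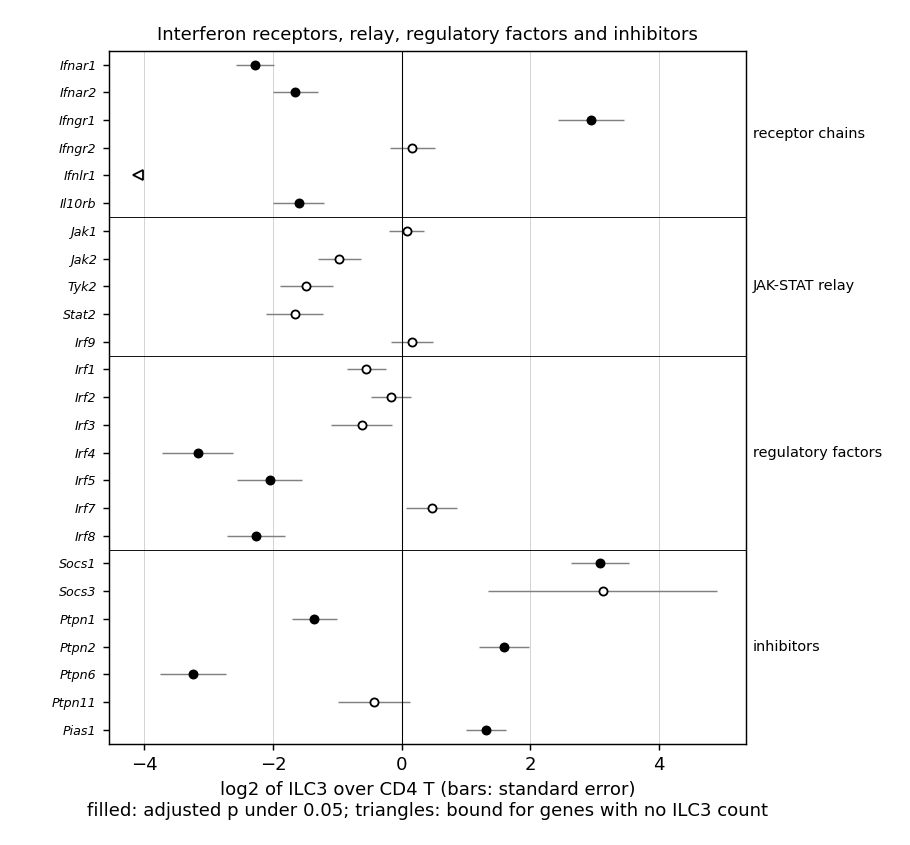
The log2 difference of ILC3 over CD4 T for interferon receptor chains, the JAK-STAT relay, interferon regulatory factors and inhibitors; bars are standard errors, filled symbols are called at an adjusted p under 0.05, and the triangle is the bound for Ifnlr1, which had no ILC3 count. Ifngr1 lies above 0 and Ifnar1 and Ifnar2 below, and Socs1 lies above 0 and Ptpn6 below.

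Among 7 other interferon regulatory factors, 3 were called lower, where 7.21% of all genes tested were. Irf7, the main amplifier of type I interferon, was not called. Irf4, a factor of activated T and dendritic cells, was 3.14, 5.77 and 10.9 CPM in ILC3 and 66.4 and 51.9 CPM in CD4 T (log2 difference -3.17, SE 0.549, adjusted p = 0.0167 by edgeR). Irf8, a factor of dendritic cells, was 14.4, 6.02 and 11.4 CPM in ILC3 and 60.2 and 41.6 CPM in CD4 T (log2 difference -2.26, SE 0.453, adjusted p = 0.0257 by edgeR). Irf5 was 15.4, 11.7 and 6.9 CPM in ILC3 and 64.8 and 29.4 CPM in CD4 T (log2 difference -2.05, adjusted p = 0.0444 by edgeR). Irf7 was 59.7, 78.4 and 47.2 CPM in ILC3 and 58.5 and 30.4 CPM in CD4 T, with the groups overlapping (log2 difference 0.47, SE 0.398, adjusted p = 0.454 by edgeR). On leaving out ILC3 replicate 2 or CD4 T replicate 1 Irf4 was not called (0.0654 and 0.0743), and on leaving out ILC3 replicate 1, 2 or 3 or CD4 T replicate 1 neither Irf8 (0.0549 to 0.114) nor Irf5 (0.0797 to 0.227) was. On leaving out CD4 T replicate 1 the log2 difference of Irf5 was -1.37.

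Upstream sensing genes that are not among the 38 were called lower in 3 of 11 tested cases, against 7.21% of all genes tested. Tlr7, the endosomal receptor for single-stranded RNA, was 0, 1.15 and 0 CPM in ILC3 and 86.1 and 82.6 CPM in CD4 T (log2 difference -7.90, SE 1.49, adjusted p = 0.0215 by edgeR). All its ILC3 counts came from replicate 2. Tlr7 thus passed the filter on low counts through the CD4 T libraries alone, so a low ILC3 value was given by the filter. With that library left out Tlr7 had no ILC3 count and was at least 1264-fold lower. The log2 difference was -7.21 with ILC3 replicate 1 left out, and Tlr7 was not called on leaving out CD4 T replicate 1 (0.0728). Unc93b1, which escorts endosomal Toll-like receptors, was 27.5, 21.8 and 19.7 CPM in ILC3 and 191 and 92.1 CPM in CD4 T (log2 difference -2.62, adjusted p = 0.0111 by edgeR), and the adaptor Traf3 was 8.8, 9.74 and 6.49 CPM in ILC3 and 91.7 and 40.3 CPM in CD4 T (log2 difference -2.98, adjusted p = 0.0112 by edgeR). On leaving out CD4 T replicate 1 the log2 differences of Unc93b1 and Traf3 were -1.99 and -2.27. The plasmacytoid dendritic cell markers named above differ in the same direction in 11 of 13 tested cases, and their part in these results was not tested. Tlr7, Irf8 and Irf7 are themselves on that list, and Irf7 was not called.

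Inhibitors of interferon signalling were called in both directions, 3 of 7 higher and 2 lower, against 6.46% and 7.21% of all genes tested. Socs1, which blocks Janus kinases, was 82.5, 63.1 and 58.6 CPM in ILC3 and 10.9 and 5.20 CPM in CD4 T, with ILC3 far above (log2 difference 3.08, SE 0.452, adjusted p = 0.0111 by edgeR, and 3.72 on leaving out CD4 T replicate 1). Ptpn2, a phosphatase of Janus kinases, was 565, 487 and 590 CPM in ILC3 and 120 and 245 CPM in CD4 T (log2 difference 1.59, adjusted p = 0.0452 by edgeR, and 2.20 on leaving out CD4 T replicate 2). Pias1, an inhibitor of STAT proteins, was 132, 104 and 89.1 CPM in ILC3 and 39.1 and 48.6 CPM in CD4 T (log2 difference 1.31, adjusted p = 0.0413 by edgeR). Ptpn6, which encodes the phosphatase SHP-1, was 16.4, 21.5 and 11.1 CPM in ILC3 and 228 and 80.6 CPM in CD4 T (log2 difference -3.24, SE 0.514, adjusted p = 0.0131 by edgeR, and -2.30 on leaving out CD4 T replicate 1). It was not called on leaving out ILC3 replicate 1 (0.0575). Ptpn2 and Pias1 lost their calls on leaving out ILC3 replicate 1, 2 or 3 or CD4 T replicate 1 (0.0625 to 0.105 and 0.0738 to 0.126) and with library size alone (0.139 and 0.213). Ptpn1, another phosphatase of Janus kinases, was 62.9, 50.7 and 46.9 CPM in ILC3 and 180 and 95.4 CPM in CD4 T (log2 difference -1.36, SE 0.349, adjusted p = 0.0488 by edgeR), and its call was lost with any ILC3 library or CD4 T replicate 1 left out (0.0989 to 0.171).

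In a wider list of 62 interferon-induced genes outside the 38, 60 were tested. Of these, 10 were called lower (16.7%) and 2 higher (3.33%), Tgtp2 and Lgals3bp, against 7.21% and 6.46% of all genes tested, and the median log2 difference was -0.94. The counts were 19 lower and 1 higher with library size alone and 16 and 7 with DESeq2. They ran from 4 to 7 lower and from 0 to 7 higher with each library left out in turn, with none higher on leaving out any ILC3 library and 7 higher on leaving out CD4 T replicate 2. Lgals3bp rests on 2 counts in CD4 T. Ifi27l2a, a mitochondrial protein gene, was 18.3, 72.4 and 45.8 CPM in ILC3 and 930 and 889 CPM in CD4 T (log2 difference -4.32, SE 0.577, adjusted p = 0.00847 by edgeR). Trim25, the ligase that activates RIG-I, was 9.74, 17.2 and 10.3 CPM in ILC3 and 168 and 96.3 CPM in CD4 T (log2 difference -3.41, SE 0.408, adjusted p = 0.00618 by edgeR). Tap1, the peptide transporter of class I presentation, was 11.1, 14 and 17.2 CPM in ILC3 and 109 and 63.0 CPM in CD4 T (log2 difference -2.61, adjusted p = 0.0101 by edgeR). The 3 genes kept their calls with each library left out in turn. The list was drawn with earlier results of these data known, and it is no independent test of the direction seen in the 38.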

How the data were processed

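RNA-seq libraries (SMARTer Ultra Low Input kit, per the labels' protocols) of 3 ILC3 and 2 CD4 T samples were analysed. The authors deposited whole-number counts per gene, without normalization. CASAVA 1.8.2, STAR 2.3.0 and build mm10 are named in the submitters' processing notes. For the counting tool, its annotation and the use of strand, the entry is not given in the sources used here. Identifiers were named from RefSeq GRCm38.p6 (25275 of 27179 matched), and exon lengths came from GENCODE M21. Genes were filtered with filterByExpr, scaled by TMM and tested with edgeR 4.0.16 (glmQLFit, glmQLFTest) in R 4.3.3, ILC3 against CD4 T without covariates, with Benjamini-Hochberg adjustment over 12747 genes. The SE is the log2 difference over the square root of F. Alternatives used DESeq2 1.42.0, limma 3.58.1, other scalings, other filters and each library left out. The fit was tested on simulated data. For folds against a group at 0, that group was set at 3 counts in all, a limit for counting error only because PCR copies are not separate molecules. The genes, lists and tests were chosen with earlier results of these data known. By rule, values in every library are given for called members and the 8 uncalled members with the highest mean CPM, and from each pathway list for up to 4 called genes with the smallest p, or the 2 with the highest level where none was called; other genes were named after their values were seen. A few genes of the pathway lists are not reported here and were left out of the counts of those lists.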

Additional observations from a re-analysis of the deposited data

How the results depend on the processing

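The counts of calls depended on the test, the scaling and single libraries. Over all genes, 824 were called higher and 919 lower. The numbers were 384 and 1502 with library size alone, 1945 and 1962 with the DESeq2 Wald test, 1317 and 1402 with limma-voom, and 1250 higher with no filter on low counts. With each library left out in turn, 269 to 1712 were called higher and 306 to 960 lower, and of the 38 members 1 to 3 were called higher and 0 to 4 lower, against 2 and 7. The lowest number of lower members came from leaving out CD4 T replicate 1. Where 1 CD4 T library is left, it is assumed to vary like the ILC3 libraries. Library size alone left 1 member called higher, and 20.4% of all calls were then higher in place of 47.3%, with a median log2 difference over all genes of -0.60 in place of -0.10. DESeq2 size factors, upper quartile factors and the filter of 1 CPM in 2 libraries each kept all 9 called members. No member call changed direction in any fit.

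The sign of some log2 differences turned. With library size alone it was -0.40 for Ddx58, -0.26 for Zbp1, -0.30 for Samhd1, -0.20 for Irgm1, -0.45 for Xaf1, -0.41 for Jak1, -0.39 for Irf9, -0.04 for Irf7 and -0.32 for Ifngr2, and in limma-voom 0.34 for Oas1a and -1.88 for Mx2. With each library left out in turn, the log2 difference ran from -0.09 to 0.34 for Ddx58, from 0.01 to 0.59 for Zbp1, from -0.89 to 1.34 for Oas1a, from 0.11 to 0.27 for Samhd1, from -1.83 to 1.57 for Mx2, from -0.56 to 0.32 for Isg15, from -1.64 to 0.47 for Usp18, from -0.06 to 0.87 for Irgm1, from -2.91 to 0.58 for Ifi44, from -0.10 to 0.17 for Xaf1, from -0.07 to 0.26 for Jak1, from -2.31 to 0.31 for Ifng, from -1.19 to 1.12 for Gzmb, from -1.98 to 0.25 for Cd3g and from -0.15 to 0.60 for Ifngr2. Gzmb, a granzyme taken as a marker, was called higher on leaving out CD4 T replicate 2 (adjusted p = 0.0353 by edgeR) and lower on leaving out CD4 T replicate 1 (0.0428). The others were not called where their sign turned. The cause was not tested.

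Replicate numbers are shared by the groups for 2 pairs only, and nothing in the labels ties them to mice. Deviations from the group means correlated at -0.0235 and -0.0338 for same-numbered libraries across 12747 genes. Against the other CD4 T library, the same ILC3 libraries were at 0.0235 and 0.0338. Deviations of 2 libraries from their mean mirror each other, so these opposite values add no separate information. With the replicate number as a block, 215 genes were called higher and 305 lower, and 1 member in each direction, Igtp and Gbp3. In that paired fit Mx2 was -3.08 and Gzmb 0.01. At these depths, 3 counts in a library correspond to 0.116 to 0.198 CPM, and a level below that rests on 1 or 2 counts.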
